A study of Mus musculus with 34 samples.

Results

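The regions described here are stretches of open chromatin that lie inside coding exons and far from gene starts in mouse hair follicle stem cells (HFSCs). ATAC-seq, in which a transposase inserts sequencing adaptors into accessible DNA, gave a list of peaks for each of 34 libraries. A peak belonged to the set when it lay on chromosomes 1 to 19, when its summit (the base with the highest signal) lay in the coding sequence of a protein-coding gene, and when the summit was over 5 kb from every transcription start of every protein-coding gene in GENCODE vM39 (genome build GRCm39). Of 1885450 autosomal peaks over the 34 lists, 43547 (2.31%) had their summit in a coding exon. Of these, 10473 peaks were over 5 kb from a start, which was 24% of the peaks in coding exons and 0.555% of all peaks. Peaks overlapping by 1 bp or more were merged, which gave 2459 regions in 1989 genes, beside 244744 regions when all autosomal peaks were merged. They are called distal coding exon regions below. The 187805 regions formed by peaks whose summits were over 5 kb from a start but in no coding exon are called distal non-coding regions.

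The study asked how HFSCs switch on the uptake of dying neighbours when the hair follicle regresses, and whether the retinoid receptor RXRα is needed for it. The in vivo libraries were of HFSCs sorted from mouse skin as CD34-high and integrin α6-positive after removal of cells with Sca1 or lineage markers (CD31, CD117, CD140a or CD45), with YFP in place of CD34 for the Rxra cKO and Rxra WT mice. They comprised late catagen (CatVII) wild-type HFSCs (n = 6) and full anagen (AnaVI) wild-type HFSCs (n = 2), and CatVII HFSCs labelled Rxra cKO (n = 3) and Rxra WT (n = 4). The cKO mice were Rxra fl/fl with a tamoxifen-inducible Cre under the Sox9 promoter (Sox9-CreER) and a Cre-dependent R26-YFP allele. The sources differ on the controls, which are given as mice without Cre, as Rxra fl/+ mice with Sox9-CreER or, for the cells sorted for ATAC-seq, as Rxra +/+ with Sox9-CreER and R26-YFP. The other 19 libraries were of cultured HFSC lines in which Sox9-CreER had been activated in culture, so that Rxra WT cultures had also been exposed to active Cre. All lines carried R26-YFP and were grown on fibroblast feeders, and the cultured cells too were sorted before ATAC-seq. Rxra WT cultures received apoptotic HFSC corpses exposed to BEL (bromoenol lactone, which blocks the calcium-independent phospholipase A2 enzymes, n = 4), untreated corpses (n = 4), a mix of arachidonic acid (AA), lysophosphatidylcholine (LPC) and retinoic acids (RA, n = 2) or medium alone (n = 2). Rxra cKO cultures received untreated corpses (n = 3), the AA, LPC and RA mix (n = 2) or medium (n = 2). All corpses were HFSCs killed with cisplatin. Those called untreated here had no BEL but, per the study, received its vehicle, DMSO. The number of independent lines behind the cultures is not stated in the sources used.

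Most accessible sites far from gene starts are enhancers in introns or between genes, where transcription factors displace nucleosomes. Some coding exons do the same job, so that one stretch of DNA spells out a protein and also carries binding sites. In epidermal cells, AP-1 (FOS and JUN dimers) is among the factors that most often sit at open enhancers, and it binds the letters TGANTCA. Exons that are rich in CpG dinucleotides can be open for another reason, since unmethylated CpG-rich DNA tends to be depleted of nucleosomes. In repeated sequence, by contrast, reads from several copies can pile up on one of them.

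The sequences of 9 of these exons are shown first, as examples of the kinds of sequence that the regions hold: AP-1 letters within coding DNA, dense CpG, a receptor exon and a repeat. They were picked after the results were seen. Each is the 201 bases centred on the summit, read 5′ to 3′ on the coding strand of its gene from GRCm39. In the sequences of Tacc2, Ash1l, Slx4ip, Muc16 and Aox2, capitals mark TGANTCA, the letters of AP-1. Tacc2 (exon 3, chr7:130226175-130226375, plus strand) encodes a centrosomal coiled-coil protein, and Ash1l (exon 3, chr3:88891439-88891639, plus strand) a histone methyltransferase. Slx4ip (exon 8, chr2:136909684-136909884, plus strand) encodes a partner of the SLX4 nuclease scaffold, and Muc16 (exon 2, chr9:18566241-18566441, minus strand) a large membrane mucin. In these 4 windows all 201 bases were coding. In the window of Aox2 (exon 14, chr1:58343627-58343827, plus strand), an aldehyde oxidase gene, 146 bases were coding, and the AP-1 letters began just beyond the end of the exon, over its splice donor. In Zfp771 (exon 3, chr7:126853385-126853585, plus strand), a zinc finger gene, and Snx20 (exon 4, chr8:89353980-89354180, minus strand), a sorting nexin gene, capitals mark the CG dinucleotides, of which the windows hold 37 and 40. In Rara (exon 4, chr11:98858811-98859011, plus strand), which encodes retinoic acid receptor α, a heterodimer partner of RXRα, capitals mark the 141 coding bases, which encode part of the DNA-binding domain. In Stat2 (exon 23, chr10:128126480-128126680, plus strand), a transducer of interferon signals, capitals mark 5 exact copies of one 24-base unit. A match to a motif is a description of the letters and not evidence of binding.
Tacc2: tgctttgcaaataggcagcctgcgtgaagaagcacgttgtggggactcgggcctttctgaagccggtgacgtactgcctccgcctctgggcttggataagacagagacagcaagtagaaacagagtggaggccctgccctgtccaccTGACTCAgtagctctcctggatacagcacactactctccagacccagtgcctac
Ash1l: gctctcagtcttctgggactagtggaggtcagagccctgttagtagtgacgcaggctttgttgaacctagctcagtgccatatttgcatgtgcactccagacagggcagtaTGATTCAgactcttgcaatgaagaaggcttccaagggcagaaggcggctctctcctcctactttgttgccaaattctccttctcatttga
Slx4ip: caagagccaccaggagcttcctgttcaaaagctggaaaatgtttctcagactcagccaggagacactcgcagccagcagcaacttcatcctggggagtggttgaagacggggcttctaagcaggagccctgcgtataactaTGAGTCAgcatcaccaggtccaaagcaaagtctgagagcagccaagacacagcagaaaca
Muc16: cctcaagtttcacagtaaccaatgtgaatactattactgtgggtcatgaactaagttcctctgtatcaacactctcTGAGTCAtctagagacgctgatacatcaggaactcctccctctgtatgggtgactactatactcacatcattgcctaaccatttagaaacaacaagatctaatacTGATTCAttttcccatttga
Aox2: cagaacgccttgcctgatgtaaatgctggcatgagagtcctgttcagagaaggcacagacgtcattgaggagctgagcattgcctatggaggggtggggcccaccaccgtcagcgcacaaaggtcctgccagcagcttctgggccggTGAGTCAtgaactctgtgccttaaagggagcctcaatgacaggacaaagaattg
Zfp771: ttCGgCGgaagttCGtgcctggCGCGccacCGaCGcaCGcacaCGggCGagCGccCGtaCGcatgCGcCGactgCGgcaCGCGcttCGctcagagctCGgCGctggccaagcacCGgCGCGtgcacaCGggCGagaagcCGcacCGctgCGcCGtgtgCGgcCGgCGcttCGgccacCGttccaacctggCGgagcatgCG
Snx20: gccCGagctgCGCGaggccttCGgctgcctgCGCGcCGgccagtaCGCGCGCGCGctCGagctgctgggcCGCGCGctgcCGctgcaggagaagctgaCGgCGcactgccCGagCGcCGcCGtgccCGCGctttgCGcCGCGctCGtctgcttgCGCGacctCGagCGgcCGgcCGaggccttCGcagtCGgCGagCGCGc
Rara: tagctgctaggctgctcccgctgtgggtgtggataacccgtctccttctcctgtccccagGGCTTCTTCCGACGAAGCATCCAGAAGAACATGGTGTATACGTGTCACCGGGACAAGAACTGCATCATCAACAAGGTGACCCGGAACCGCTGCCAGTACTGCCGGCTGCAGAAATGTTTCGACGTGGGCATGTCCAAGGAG
Stat2: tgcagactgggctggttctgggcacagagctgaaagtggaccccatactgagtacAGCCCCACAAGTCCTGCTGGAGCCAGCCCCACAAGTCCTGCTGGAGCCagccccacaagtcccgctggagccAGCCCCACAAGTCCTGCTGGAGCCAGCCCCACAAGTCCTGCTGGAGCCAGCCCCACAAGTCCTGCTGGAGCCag

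The lists differed widely in length, with 3976 to 126373 autosomal peaks per library, and the 4 medium libraries were the shortest at 3976 to 5542. Promoter peaks of HFSC and basal epidermal markers were present for 9 or 10 of 10 genes in every CatVII Rxra cKO and Rxra WT library, for 1 to 10 in CatVII wild-type libraries, 3 to 10 in AnaVI libraries, and 6 to 9 in the fed cultures. In medium cultures there were 0 to 2. Cd34, a surface marker of HFSCs, had a promoter peak in 8 in vivo libraries and in no culture. Markers of other cell types were mixed. Among immune markers Ptprc, Cd3e and Cd207 had no promoter peak in any library, Adgre1 had one in 1 and Csf1r in 15. Among melanocyte markers Mlana and Tyr had none, Dct had one in 19 libraries and Pmel in 29. Among fibroblast markers Lum had none, Dcn had one in 1 library, Col1a2 in 6, and Pdgfra and Col1a1 in 24 each. Among endothelial markers the counts were 5 for Cdh5, 9 for Kdr and 14 for Pecam1. Csf1r and Pecam1 had promoter peaks in every culture fed BEL-treated or untreated corpses and in 3 of 4 cultures with the AA, LPC and RA mix, and in no medium culture. All libraries were made from sorted cells, and the part of other cells in the peaks was not tested. The stored peak names of the CatVII libraries and of the cultures carry the tags Phago or NonPhago, which cross some of the labelled groups. All medium and CatVII Rxra WT libraries are stored as NonPhago. With the AA, LPC and RA mix, the Rxra WT libraries are stored as Phago and the Rxra cKO libraries as NonPhago. The stored names of CatVII Rxra WT replicates 2 to 4 name an age (P37), whereas replicate 1 and the cKO libraries are stored as P42. Their endings, NonPhago 4 to 6, follow on from NonPhago 1 to 3 in the names of the wild-type CatVII series. Unlike replicate 1, these replicates have no genotype in the stored name. AnaVI names give P33 and CatVII wild-type names P37. Groups here follow the labels, and whether replicates 2 to 4 came from Rxra WT mice was not tested. The lists hold no read counts, so loss of Rxra could not be checked. Peaks in bulk samples cannot tell more cells with an open site from wider opening within each cell. CatVII Rxra cKO replicates 2 and 3 are stored with the same tag, m2, as NonPhago and Phago, so they may be fractions of 1 mouse. In CatVII wild-type, corpse-fed and BEL libraries the Phago and NonPhago names also reuse the same numbers. Whether replicates came from separate animals or cultures is not stated for every group, so p-values measure the spread between these libraries, which may be technical.

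The distal coding exon regions were small and only partly coding. Their median width was 274 bp (60 to 1602), the exon under the summit had a median length of 158 bp (4 to 17997), and a median of 50% of a region's bases were coding. In all, 414 regions (16.8%) were wholly coding. That share followed the length of the exon: it was 4.16% of the 1636 regions in exons up to 200 bp, 18% of the 450 in exons of 200 to 500 bp, 52.3% of the 155 in exons of 500 to 1000 bp and 84.4% of the 218 in longer exons. The last coding exon held 643 regions (26.1%) and the first 80 (3.25%). The median distance from a protein-coding start was 12804 bp. Since the rule counts protein-coding starts alone, 125 regions (5.08%) lay within 1 kb of a start of another kind of gene, and 2058 (83.7%) were over 5 kb from any start. In 96 regions (3.90%), the sequence was repeated, meaning that the median 25-base word occurred at 1 or more other places in the genome. Those places could be within the same region or outside it. Reads there could belong to several copies.

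Distal coding exon regions were richer in G, C and CpG than distal non-coding regions, and somewhat poorer in AP-1 letters. The median GC content of the 201 bases around the summit was 51.7%, against 46.3% in distal non-coding regions, and the median ratio of observed to expected CpG was 0.324 against 0.175. A ratio over 0.6 was found in 12.9% of distal coding exon regions and 3.45% of distal non-coding regions. All coding bases over 5 kb from a start, open or not, were 50.1% G or C. The AP-1 letters TGANTCA were in 21.8% of distal coding exon windows, against 26.9% of distal non-coding and 25.5% of all windows (both strands searched, here and below). GATA letters (AGATAA) were in 7.28% against 10.8% of distal non-coding windows, and LIM homeodomain letters (TAATTA) in 2.44% against 6.24%. In the other direction, E-box letters (CAGCTG) were in 17.6% against 11.9%, KLF/SP letters (GGGCGG) in 9.88% against 4.44%, and NRF2-type letters (TGACNNNGC) in 12.8% against 9.60%. TEAD letters (CATTCC) were in 15% against 16.2%, RUNX letters (TGTGGT) in 18.9% against 19.8%, SOX letters (ACAATG) in 11.7% against 13.8%, GRHL letters (AACNGGTT) in 2.52% against 2.86%, and the CTCF motif in 2.20% against 2.02%. The retinoic acid response element of the DR5 kind (GGTCANNNNNNGGTCA) was in 2 distal coding exon windows (0.0813%), against 0.0421% of distal non-coding windows. The windows were chosen by their exons, so these shares also carry the codon and splice-site composition of coding DNA. Each was centred on the highest-ranked summit that lay in the exon, even where most libraries had the summit outside it. The part of this placement in the shares was not tested.

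Most of the exons were open in several libraries, and none in all. A region counted as open in a library when any peak of that library overlapped it, whether or not the summit was in the exon. By that count, 538 distal coding exon regions (21.9%) were open in 1 library, 30.9% in 2 to 5, 36.6% in 6 to 17 and 259 (10.5%) in 18 or more. The shares for distal non-coding regions were 33.6%, 30.1%, 27.9% and 8.37%, and for all regions 31.4%, 28.6%, 27.5% and 12.5%. A region entered the set when the summit of any 1 library fell in the exon, and in 1003 regions it did so in 1 library alone. Sites open in more libraries thus had more chances to enter, so these shares are not like for like. The most widely open was so in 32 libraries, whereas 294 of all regions were open in all 34. An open exon was often the flank of a peak centred outside it: of the 259 wide regions, 52 had the summit in the exon in at least 90% of the libraries with a peak, and 139 in fewer than 50% of them. AP-1 letters were found in 25.1% of the 259 wide regions and 14.9% of those open in 1 library. The corresponding shares in distal non-coding regions were 39.4% and 16.9%, so the letters were more frequent in wide regions of both kinds. The coding windows were centred on a summit in the exon, which in 139 wide regions was not the usual centre of the peak. The part of this in the lower share was not tested.

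**Figure D1:**
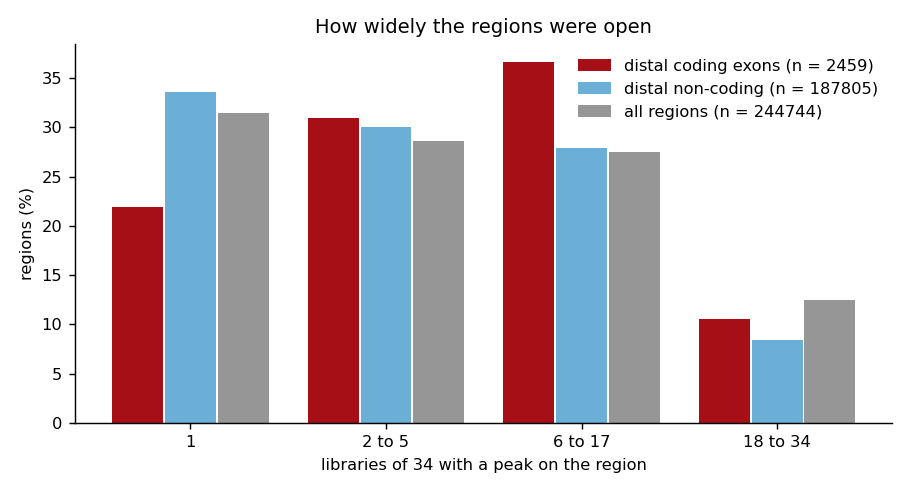
Share of regions (%, vertical axis) by the number of libraries in which they were open (horizontal axis, 4 classes), for distal coding exons, distal non-coding regions and all regions. Distal coding exons had 21.9% of their regions in the 1-library class, against 33.6% of distal non-coding regions.

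The exons open in the most libraries belonged to genes of many functions. Prdm2, which encodes a histone methyltransferase, had the most widely open region, in exon 6 (chr4:142888173-142889183), with a peak in 32 libraries and the summit in the exon in 12 of them. The values below are the fold enrichment of the peak, that is the signal at the summit over the local background as the peak caller gave it, and a library without a value had no peak. For Prdm2 the fold enrichment was 14.8, 18 and 25.8 in CatVII Rxra cKO, 18.4, 17.8, 12 and 12.9 in CatVII Rxra WT, and 15.1, 15.4 and 18.1 in corpse-fed Rxra cKO against 12.6, 18.1, 19.8 and 23.4 in corpse-fed Rxra WT cultures. The values of these 4 groups overlapped. It was 10.5 and 4.85 in Rxra cKO medium cultures, and the Rxra WT medium cultures were those without a peak.

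In some of these exons the peak was centred on coding DNA in all or nearly all libraries that had one. Tacc2 exon 3 (chr7:130225462-130226606, a region wholly inside an exon of 5121 bp) was open in 29 libraries with the summit in the exon in all 29. Its fold enrichment was 19.4, 13.2, 17.1 and 16.1 in cultures fed BEL-treated corpses, 15.1, 10.02 and 17.4 in Rxra cKO and 11.5, 13.5, 18.9 and 22.2 in Rxra WT cultures fed untreated corpses, 10.6, 15.5 and 20.2 in CatVII Rxra cKO and 10.7, 16.7, 12.4 and 12 in CatVII Rxra WT HFSCs. The ranges of these 5 groups overlapped, and medium cultures had no peak. Inpp5b exon 7 (chr4:124644842-124646443), of an inositol polyphosphate 5-phosphatase, and Zfp771 exon 3 (chr7:126852807-126854080), whose CpG-rich sequence is shown above, had a peak in 28 libraries and the summit in the exon in all 28. Zfp771 had a fold enrichment of 12.8, 9.72 and 21.4 in CatVII Rxra cKO and 13, 17.1, 12.1 and 10.3 in CatVII Rxra WT HFSCs, and of 16.2, 15.4, 18.7 and 18.1 with BEL-treated and 7.37, 10.1, 20.2 and 16.3 with untreated corpses. Dock8 exon 35 (chr19:25148599-25150010), of a guanine nucleotide exchange factor for CDC42, had the summit in the exon in 26 of 29 libraries, and Myof exon 21 (chr19:37947630-37948821), of a membrane-repair protein, in 21 of 28.

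At the other end, several of the most widely open exons were the edges of peaks centred outside the exon. Col15a1 exon 39 (chr4:47310834-47311126), of a basement-membrane collagen, Itgb6 exon 4 (chr2:60498405-60498635), of the integrin β6 subunit, and Impa2 exon 8, of an inositol monophosphatase, were open in 28 libraries but had the summit in the exon in 1. Myo1e exon 4 (chr9:70208151-70209469), of a class I myosin, and Asap1 exon 10 (chr15:64024456-64024815), of an ARF GTPase-activating protein, had it there in 2 of 30 and 2 of 29 libraries. Atp6v1a exon 11 (chr16:43921461-43922121), of the catalytic subunit of the lysosomal proton pump, had it in 4 of 29, and Lipk exon 4 (chr19:33998956-33999391), of an epidermal lipase, in 3 of 28. Utrn (dystrophin-related utrophin, exon 17, chr10:12601689-12602510), Tfap2a (the AP-2α transcription factor, exon 4, chr13:40876067-40876909), Def6, Zfp362, Trim14, Rpgrip1l and Unc13a lay between, with the summit in the exon in 6 to 18 libraries. Of the 20 most widely open regions, Tacc2 was the one wholly inside an exon. Among other wholly coding regions, picked after their values were seen, Arhgef4 exon 2 was open in 27 libraries, Tchh exon 2 (trichohyalin of the inner root sheath) in 24, Rtn3 exon 2 in 23, Ash1l exon 3 in 21 and Prrt4 exon 5 in 20.

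**Figure D2:**
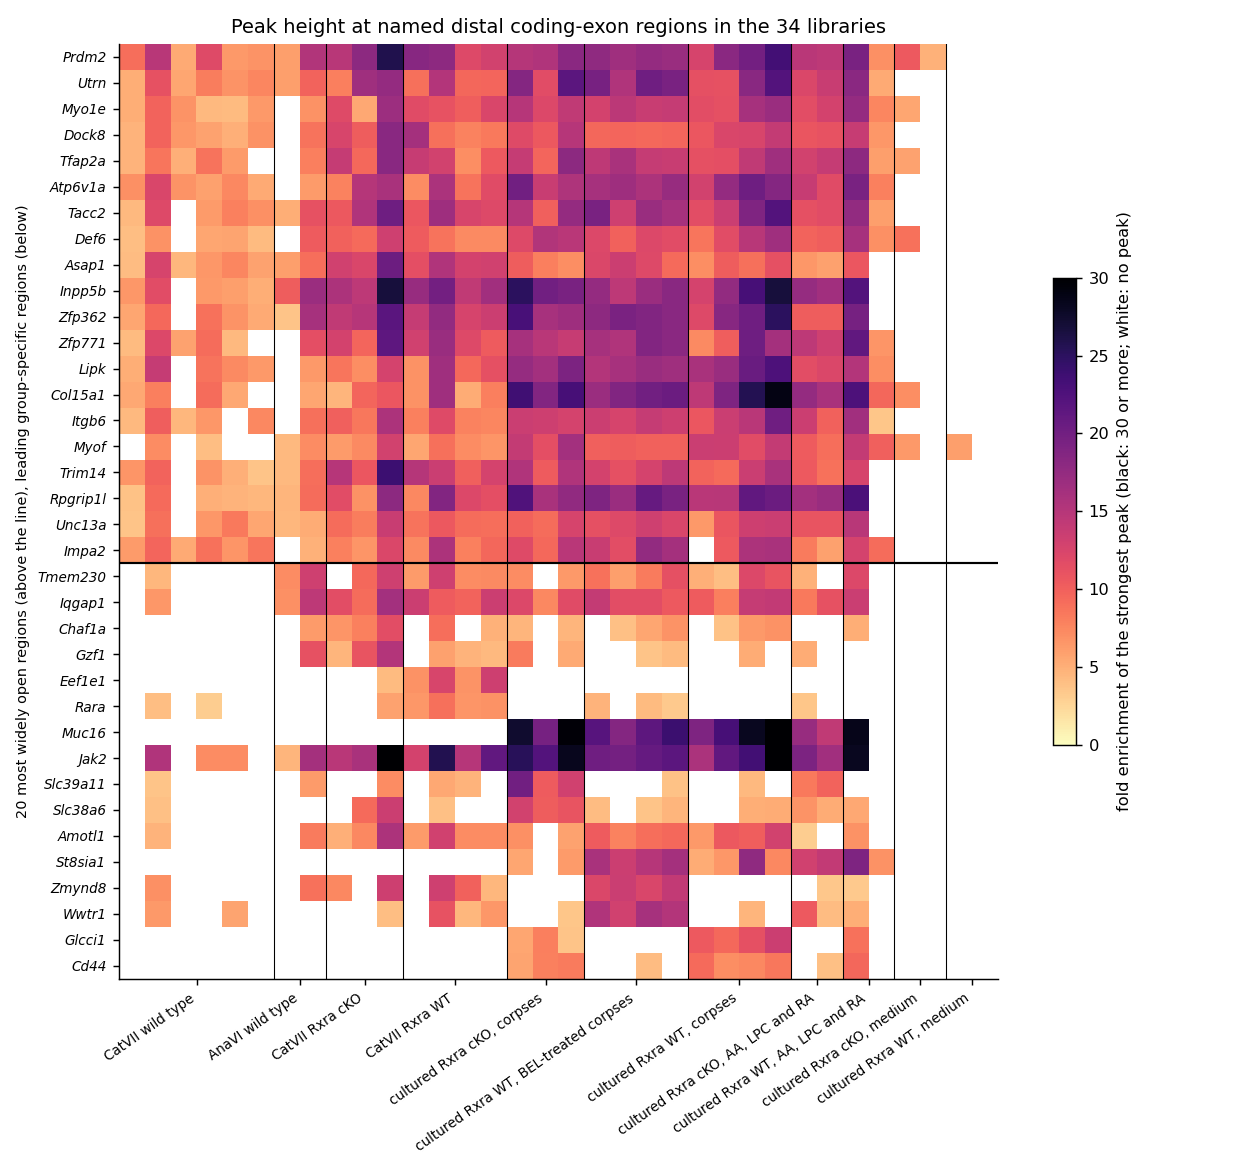
Fold enrichment of the overlapping peak (colour, white where there is no peak, black at 30 or more) for named distal coding exon regions (vertical axis) in the 34 libraries (horizontal axis, ordered by group). The 20 upper regions, from Prdm2 to Impa2, have a peak in 28 to 32 libraries, and the lower ones are the leading group-specific regions, such as Muc16 with a peak in fed cultures alone.

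The share of peaks in distal coding exons followed the length of the list. It was 0.415% to 0.717% in the 23 libraries with over 40000 peaks and 0.0641% to 0.432% in the 11 with fewer, and the number of such peaks per library ran over 3 to 768. The medium cultures had 3 or 4 such peaks each in Rxra cKO libraries and 3 and 10 in Rxra WT libraries. Coding bases make up 0.770% of all bases over 5 kb from a start. Of the peaks there, 0.861% had the summit in a coding exon, and the ratio of the share of peaks to the share of bases was 0.131 to 1.39 over the libraries (median 1.04), above 1 in 20 of 34. Within a library the peaks in distal coding exons mostly ranked slightly lower than other distal peaks: the median rank by p-value was above that of distal non-coding peaks in 5 of 34 libraries, with a median difference of −2.43 percentile points (−16.1 to 3.95). The median fold enrichment was 4.14 to 7.97 over the libraries, against 4.49 to 8.26 for distal non-coding peaks.

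**Figure D3:**
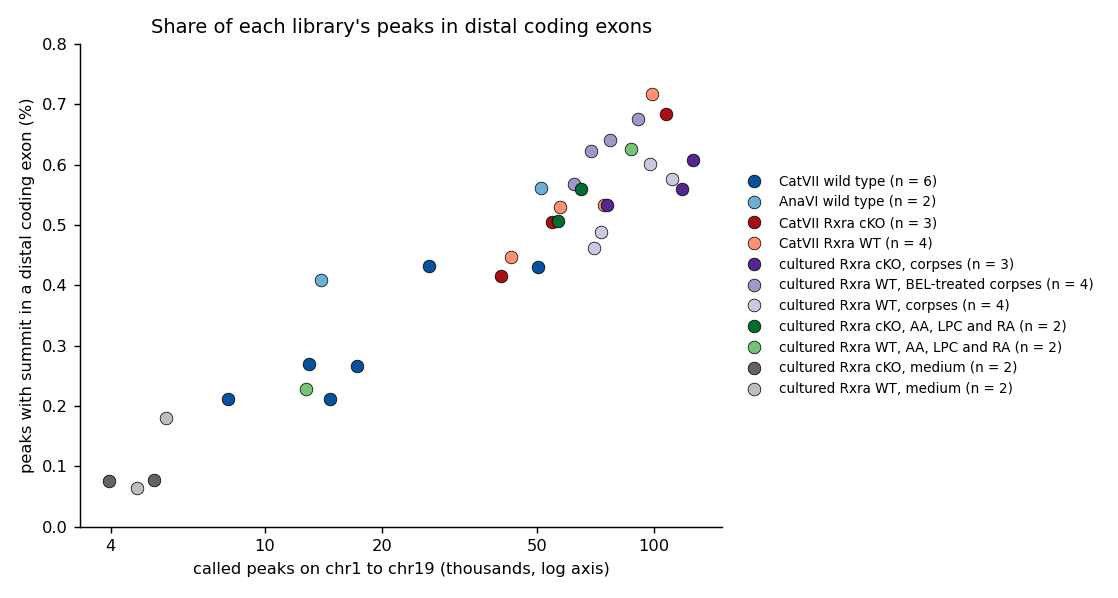
Percentage of a library's autosomal peaks with the summit in a distal coding exon (vertical axis) against the number of its peaks (horizontal axis, log scale), 1 point per library coloured by group. The 11 libraries with the shortest lists lie at 0.0641% to 0.432% and the 23 longest at 0.415% to 0.717%.

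Since the share moved with depth, groups were compared on lists of equal length, made of each library's strongest peaks by p-value down to the number in the shortest list of that comparison. In each comparison the share of listed peaks in distal coding exons was tested with an exact two-sided permutation test over libraries, and p-values were adjusted over the 5 comparisons by the Benjamini-Hochberg method. None of the 5 had an adjusted p below 0.05. Exons that were group-specific, meaning that a listed peak overlapped them in every library of one group and in no library of the other, were counted beside the same count over all autosomal regions, with no test. A listed peak counted here wherever its own summit lay.

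**Figure D4:**
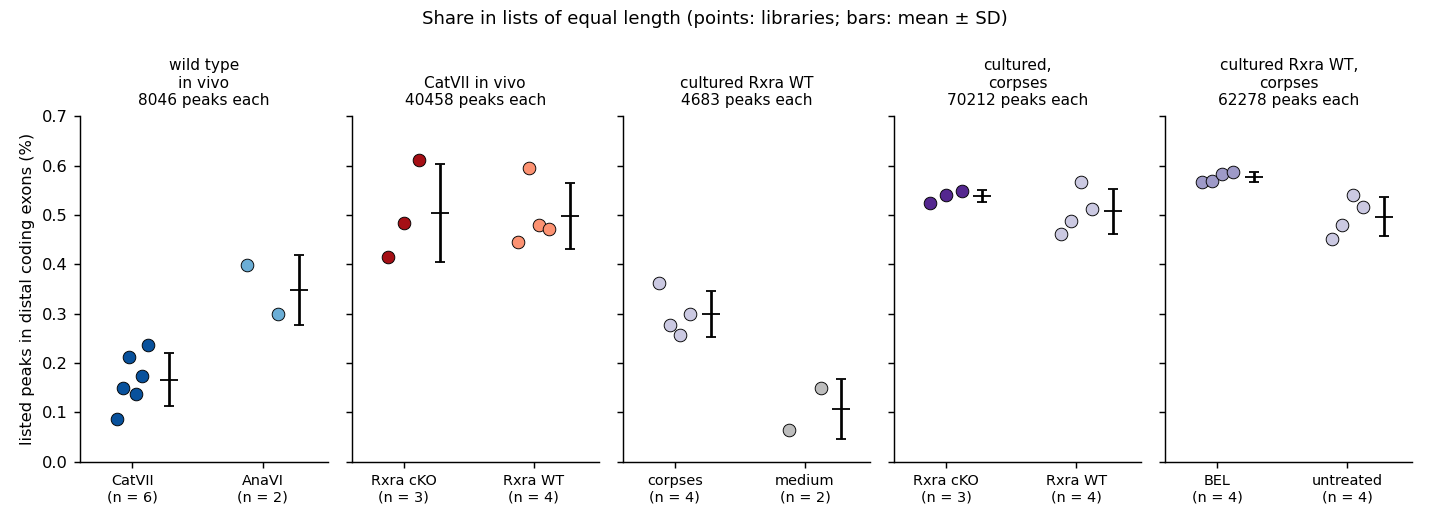
Percentage of listed peaks with the summit in a distal coding exon in lists of equal length (vertical axis), 1 point per library with the group mean and SD, for the 5 comparisons (horizontal axis, each with its own list length). The points of CatVII wild type lie below those of AnaVI, those of corpse-fed above medium cultures and those of BEL-treated above untreated corpses, and the Rxra cKO and Rxra WT points overlap in vivo and in culture.

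Late catagen and full anagen HFSCs were compared to find what the regressing follicle changes. In lists of 8046 peaks, distal coding exons held 0.166% ± 0.0537 of peaks in CatVII wild-type HFSCs (SD, n = 6, 0.0870% to 0.236%) and 0.348% ± 0.0703 in AnaVI HFSCs (SD, n = 2, 0.398% and 0.298%). The difference was −0.182 percentage points, the groups did not overlap, and the exact permutation p was 0.0357, the smallest that 28 arrangements allow (adjusted p = 0.0893). Of 75 regions tested, 1 (1.33%) was CatVII-specific and 11 (14.7%) were AnaVI-specific. Over all autosomal regions the corresponding shares were 4.94% and 9.4%, and over distal non-coding regions 2.40% and 18.3%. For 10 of the 11 AnaVI-specific exons, at least 1 CatVII library had a peak outside its equal-length list, in 4 of them higher than the lower AnaVI value. In 6 of the 11 the summit was outside the exon in both AnaVI libraries. Iqgap1 exon 6 (chr7:80412102-80412851), of an actin scaffold protein, had a fold enrichment of 6.47 in 1 CatVII library and 6.94 and 14.5 in the AnaVI libraries. Rab22a exon 7 (chr2:173540718-173540881), of an endosomal GTPase, had 6.90 and 3.73 in 2 CatVII libraries and 6.54 and 12.2 in AnaVI libraries. Tmem230 exon 3, which is repeated sequence as defined above, had 4.51 in 1 CatVII library and 7.16 and 13.2 in AnaVI, and Mtmr12 exon 15, of a myotubularin-related protein, 4.39 and 4.75 in 2 CatVII libraries and 6.80 and 10.9 in AnaVI. For Rab22a 1 CatVII value lay above the lower AnaVI value, and for the other 3 all CatVII values were below both AnaVI values. Med12l exon 42 (a Mediator subunit) and Gabpb2 exon 6 were the other 2 named. Impa2 was the CatVII-specific exon, with a fold enrichment of 5.35 to 9.67 (median 7.59) in the 6 CatVII libraries and 4.85 in 1 AnaVI library. In none of the 6 was the summit in the exon.

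This comparison rests on few and shallow libraries. Without AnaVI replicate 1 or replicate 2, the AnaVI-specific count was 41 or 40 and the difference in share −0.133 or −0.232, and the CatVII-specific count was 2 without CatVII replicate 4 or AnaVI replicate 2. The shortest peak in a list, which the peak caller ties to fragment length, was 126 to 150 bp in CatVII and 58 and 89 bp in AnaVI libraries, and HFSC marker promoters were open for 1 to 10 and for 3 to 10 of 10 genes; the part of either in the result was not tested.

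Rxra cKO and Rxra WT HFSCs of late catagen were compared to see what depends on the receptor in vivo. Distal coding exons held 0.503% ± 0.0990 of the listed peaks in Rxra cKO HFSCs (SD, n = 3, 0.415%, 0.484% and 0.611%) and 0.498% ± 0.0668 in Rxra WT HFSCs (SD, n = 4, 0.445%, 0.596%, 0.480% and 0.472%), in lists of 40458 peaks. The difference of 0.00536 percentage points was within the spread of both groups (exact permutation p = 0.914, adjusted p = 0.914). Of 442 regions tested, 8 (1.81%) were cKO-specific and 9 (2.04%) WT-specific, against 0.694% and 1.84% of all regions and 0.973% and 2.34% of distal non-coding regions. Among the WT-specific exons was 1 in a gene of the retinoid pathway. Rara exon 4 (chr11:98858784-98859346), whose sequence is shown above, had a fold enrichment of 5.81 in 1 of 3 cKO libraries and 6.47, 8.98, 6.66 and 6.91 in the 4 WT libraries. Its cKO value lay below all WT values, 2 cKO libraries had no peak, and 2 of 6 CatVII wild-type libraries, which carry unmodified Rxra, had 4.07 and 3.05. In culture it was open in 3 of 4 libraries fed BEL-treated corpses (4.77, 4.26 and 3.37) and 1 Rxra cKO library with the AA, LPC and RA mix (3.62).

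Stat2 exon 23 (chr10:128126396-128126940), the repeat-bearing exon shown above, was cKO-specific in the strict sense. Its fold enrichment was 5.84, 8.18 and 12.6 in the 3 cKO libraries, and none of the other 31 libraries had a peak there. The exon holds a tandem repeat in which 75.1% of bases equal those one unit further on. Of its 25-base words, 38.6% occur at another place in the genome, copies within the region included. Reads could therefore be placed at several positions within it. The other 5 cKO-specific exons named had peaks in 1 to 3 WT libraries outside the equal-length lists, and for each exon the lowest cKO value was under the highest in WT. Chaf1a exon 12 (chr17:56370862-56371750), of the histone chaperone CAF-1, had a fold enrichment of 6.68, 7.87 and 11.5 in cKO and 9.07 and 4.85 in 2 WT libraries, and Spg11 exon 31 (chr2:121891155-121891647), of the lysosomal protein spatacsin, 6.41, 6.08 and 13.1 in cKO and 10.05 and 3.88 in 2 WT libraries. A further Spg11 exon (exon 28) and exons of Gzf1, a zinc finger repressor, and Arel1, a ubiquitin ligase, completed the named set. On the WT side, Eef1e1 exon 4 (chr13:38833172-38833318), of a component of the tRNA synthetase complex, had 4.33 in 1 cKO library and 6.85, 12.5, 6.80 and 13.3 in WT, with no peak in any group outside the CatVII Rxra pair. All 4 WT peaks at Eef1e1 were centred outside the exon, and the cKO peak alone was centred in it. Pdcd11 exon 5 (chr19:47085341-47085564), of a ribosomal RNA processing factor, had no peak in cKO and 5.60, 16.4, 7.60 and 8.25 in WT, and Tbc1d2b, Zswim6 and Pik3r1 (a regulatory subunit of PI3 kinase) each had a peak in 1 cKO library. In 4 of the 9 WT-specific exons a cKO value lay above the lowest in WT. For 2 of these 9 (Eef1e1 and Zswim6) the summit was outside the exon in every WT library. The same held in every cKO library for 2 of the 8 cKO-specific exons (Gzf1 and Spg11 exon 28). Pdcd11 had the summit in the exon in 1 of 4 WT libraries. Pdcd11 and Pcdhgb6 were the 2 of 9 WT-specific exons with no peak at all in cKO libraries, and Stat2 and Ccdc88c the 2 of 8 cKO-specific exons with none in WT libraries.

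Single libraries moved these counts: the cKO-specific count was 52 without cKO replicate 1, and the WT-specific count was 27 without cKO replicate 1, 18 without cKO replicate 3, 29 without WT replicate 1 and 15 without WT replicate 4. The difference in share changed sign without cKO replicate 3 or without WT replicate 1, 3 or 4, between −0.0482 and 0.0494. In the libraries stored as P42 (3 cKO and 1 WT), an alternative chosen after seeing the data, it was 0.0585 (exact permutation p = 0.75, where the smallest possible is 0.25) and the counts were 28 and 50.

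In culture, the effect of apoptotic corpses was read against medium alone. Distal coding exons held 0.299% ± 0.0461 of listed peaks in corpse-fed Rxra WT cultures (SD, n = 4, 0.363%, 0.278%, 0.256% and 0.299%) and 0.107% ± 0.0604 in medium cultures (SD, n = 2, 0.0641% and 0.149%), in lists of 4683 peaks. The difference was 0.192 percentage points with no overlap (exact permutation p = 0.0667, the smallest that 15 arrangements allow, adjusted p = 0.111), so that this design could not reach 0.05. Of 31 regions tested, 10 (32.3%) were corpse-specific and 0 medium-specific, against 20.4% and 11.7% of all regions and 21.9% and 18.8% of distal non-coding regions. Only 2 regions of the set had any peak in both medium libraries, so at most 2 could be medium-specific. The 0 can therefore not be read against the 11.7% and 18.8%. Regions entered the set almost wholly through other libraries, since the medium libraries gave 3 and 10 such peaks. With so few medium regions among those tested, the 32.3% is not like for like with 20.4% and 21.9% either. None of the 10 had any peak in a medium library. They include Muc16 exon 2 (chr9:18565842-18566672), with a fold enrichment of 27.3, 19.6 and 29.6 in Rxra cKO and 19, 23.2, 28.2 and 33.9 in Rxra WT cultures fed corpses. Cultures fed BEL-treated corpses had 21.9, 18.5, 21.5 and 24, those given the AA, LPC and RA mix 17.2 and 14.3 in Rxra cKO and 28.6 in 1 of 2 Rxra WT libraries, and no in vivo or medium library had a peak. Muc16 was therefore open in every fed culture but 1 (the AA, LPC and RA library with 12705 peaks) and in no HFSC taken from skin. Efna5 exon 5 (chr17:62914032-62914894), of the ligand ephrin A5, had 17.5, 23.4, 25.5 and 31.5 with corpses, and Jak2 exon 19 (chr19:29278166-29278681), of a cytokine receptor kinase, 15.8, 21.1, 23.5 and 30.3. Both were also open in vivo. Efna5 had 6.69 and 10.3 in 2 CatVII Rxra cKO libraries, 13.1, 5.58 and 5.86 in 3 of CatVII Rxra WT and 4.51 in 1 CatVII wild-type library, all below the corpse-fed values, and Jak2 had 14.7, 15.8 and 30.8 in CatVII Rxra cKO and 12.8, 25.7, 15 and 21.2 in CatVII Rxra WT HFSCs. Col15a1, Epg5 exon 2 (an autophagy tether) and an exon of 6820408C15Rik were the other 3 named. In 3 of the 10 corpse-specific exons, Col15a1 and 6820408C15Rik among them, the summit was outside the exon in all 4 corpse-fed libraries. It was in the exon in 1 of these libraries for Jak2 and in 2 for Efna5.

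HFSC marker promoters were open for 7 to 9 of 10 genes in corpse-fed cultures and 0 to 2 in medium cultures, whose lists held 4683 and 5542 peaks, and the part of this in the result was not tested. In the NonPhago-tagged libraries the difference in share was 0.214. The medium-specific count was 1 without corpse-fed replicate 3, 9 without medium replicate 3 and 7 without medium replicate 4.

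Corpse-fed Rxra cKO and Rxra WT cultures were set side by side to see whether the response needs the receptor. In lists of 70212 peaks the share was 0.538% ± 0.0124 in cKO (SD, n = 3, 0.524%, 0.541% and 0.548%) and 0.507% ± 0.0450 in WT cultures (SD, n = 4, 0.461%, 0.487%, 0.567% and 0.513%). The difference of 0.0309 percentage points was within the range of WT cultures (exact permutation p = 0.314, adjusted p = 0.393). The difference between this and the in vivo effect of Rxra was −0.0255 percentage points (in vivo minus culture; exact permutation p = 0.687 over 1225 arrangements). Of 733 regions tested, 24 (3.27%) were cKO-specific and 14 (1.91%) WT-specific, against 3.7% and 1.71% of all regions. The distal non-coding shares were 4.78% and 1.92%, so the coding exons stood near the background in both directions. Slc39a11 exon 4 (chr11:113413993-113414271), of a zinc transporter, had a fold enrichment of 19.98, 10.4 and 13.1 in cKO cultures and 4.35 in 1 WT culture. Eya1 exon 6 (chr1:14344064-14344561), of a coactivator phosphatase, had 14.7, 8.79 and 15.3 in cKO and 6.99 in 1 WT culture, and Gbp4 exon 4 (chr5:105273180-105273499), of an interferon-induced GTPase, 19.4, 7.32 and 12.2 in cKO and 6.41 in 1 WT culture. The values of cKO cultures were above the WT value in all 3 genes. Gbp4 exon 4 is repeated sequence, so its reads could belong to several copies, and the Slc39a11 summit was outside the exon in all 3 cKO cultures. Of the 24 cKO-specific exons, 15 had a peak in a WT culture outside the equal-length lists, and in 3 of these it was above the lowest cKO value. Both Rxra cKO cultures with the AA, LPC and RA mix also had peaks at Slc39a11 (8.38 and 9.73), Eya1 (11.5 and 8.16) and Gbp4 (10.9 and 6.03). Ptgfr exon 3, of the prostaglandin F receptor, Zfp959 exon 4 and Slc38a6 exon 3 were the other cKO-specific exons named.

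Among the WT-specific exons, Smo exon 6 (chr6:29755341-29755694) lies in the gene of the Hedgehog signal transducer, the 1 gene of a pathway list in this comparison. Its fold enrichment was 6.39 and 6.82 in 2 of 3 cKO cultures and 4.94, 7.45, 12.8 and 11.4 in WT cultures, which overlapped. St8sia1 exon 4 (ganglioside GD3 synthase, chr6:142813631-142813739) had 5.58 and 6.27 in 2 cKO and 5.24, 6.53, 17.7 and 7.38 in WT cultures, and Creb3l1 exon 10 (chr2:91816556-91816724), of a membrane-bound transcription factor, 4.16 in 1 cKO and 5.72, 6.60, 10.5 and 10.3 in WT cultures. Creb3l1 was the one of the 3 in which the groups did not overlap, and its summit was outside the exon in all 4 WT cultures. Of the 14 WT-specific exons, 13 had a peak in a cKO culture outside the equal-length lists, and in 11 of these it was above the lowest WT value. Amotl1 and Gk5 were also named. A promoter peak of the endothelial marker Cdh5 was present in all 3 cKO and in no WT corpse-fed culture, and endothelial promoters numbered 2 of 3 in cKO and 1 of 3 in WT cultures; the cultured cells had been sorted, and the part of other cells in these counts was not tested. The cKO-specific count was 37 without cKO replicate 2 and 41 without cKO replicate 3, and the WT-specific count was 25 without cKO replicate 3, 29 without WT replicate 1, 22 without WT replicate 2 and 24 without WT replicate 4. In the NonPhago-tagged libraries the difference in share was 0.0584.

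BEL was applied to dying cells to block the lipid signals that they release, and HFSCs fed such corpses were compared with HFSCs fed untreated ones. Distal coding exons held 0.576% ± 0.0104 of listed peaks with BEL-treated corpses (SD, n = 4, 0.567%, 0.568%, 0.583% and 0.588%) and 0.497% ± 0.0397 with untreated corpses (SD, n = 4, 0.451%, 0.479%, 0.541% and 0.515%), in lists of 62278 peaks. The difference was 0.0799 percentage points and the groups did not overlap (exact permutation p = 0.0286, the smallest that 70 arrangements allow, adjusted p = 0.0893). Of 660 regions tested, 29 (4.39%) were BEL-specific and 2 (0.303%) specific to untreated corpses, against 2.23% and 0.713% of all regions and 1.77% and 0.772% of distal non-coding regions. Zmynd8 exon 12 (chr2:165662433-165662716), of a chromatin reader, had a fold enrichment of 12.2, 13.5, 12.4 and 14.2 with BEL-treated corpses and no peak in the 4 cultures with untreated corpses. Wwtr1 exon 3 (chr3:57408947-57409469), of the Hippo pathway coactivator TAZ, had 15.5, 13.1, 16.1 and 15.2 with BEL-treated and 4.64 in 1 culture with untreated corpses. Arhgef12 exon 11 (chr9:42927212-42927363), of a RHOA exchange factor, had 10.01, 7.79, 9.42 and 8.93 with BEL-treated and 5.21 in 1 culture with untreated corpses. The values in BEL cultures were narrow and above every value with untreated corpses in all 3. Baiap2l1 exon 3 (an I-BAR actin regulator), Clmp exon 7 (a cell adhesion molecule) and Smoc2 exon 4 (a matricellular protein) were the other 3 named, with 6.48 to 11.2 in BEL cultures and 2.89 to 5.25 in 1 or 2 cultures with untreated corpses. In all 6 named exons the summit was outside the exon in every BEL culture, so these are heights of peaks centred beside the exon that reach into it. Of the 29 BEL-specific exons, 26 had a peak with untreated corpses outside the equal-length lists, and in 17 of these it was above the lowest BEL value.

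The 6 named BEL-specific exons were also open in libraries outside this comparison, Wwtr1 in 10, Zmynd8 in 9, Baiap2l1 in 8, Arhgef12 in 3, Clmp in 2 and Smoc2 in 1. Zmynd8 had 7.43 and 13.3 in 2 of 3 CatVII Rxra cKO and 13.2, 9.92 and 4.56 in 3 of 4 CatVII Rxra WT libraries, and Wwtr1 had 4.02 in 1 and 11.1, 4.53 and 6.47 in 3 of these. The 2 exons specific to untreated corpses were Glcci1 exon 4 (chr6:8573188-8573331), of a glucocorticoid-induced protein, and Cd44 exon 18 (chr2:102652442-102652673), of the hyaluronan receptor. Glcci1 had no peak with BEL-treated corpses and 10.5, 9.49, 11.3 and 13.4 with untreated ones, and Cd44 had 4.15 in 1 culture with BEL-treated corpses and 9.28, 7.07, 7.42 and 8.55 with untreated ones. Neither was open in any in vivo library. Glcci1 exon 4 is repeated sequence, and without repeated sequence Cd44 alone was specific to untreated corpses. The deposited lists of the 2 groups differed in other ways too: the shortest peak was 144 or 145 bp in BEL cultures and 60 to 104 bp with untreated corpses, and peaks in coding exons at any distance were 2.49% to 2.63% and 1.77% to 2.13% of the whole lists, and the part of this in the result was not tested. With lists cut to 50% of that length the difference in share was 0.0297 (exact permutation p = 0.4), in the NonPhago-tagged libraries it was 0.103 (p = 0.333, the smallest that these libraries allow), and the p was 0.0571 without any 1 BEL library. The BEL-specific count was 51 without untreated-corpse replicate 3, and the count specific to untreated corpses was 5 without BEL replicate 3, 10 without BEL replicate 4, 4 without untreated-corpse replicate 2 and 6 without untreated-corpse replicate 4.

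**Figure D5:**
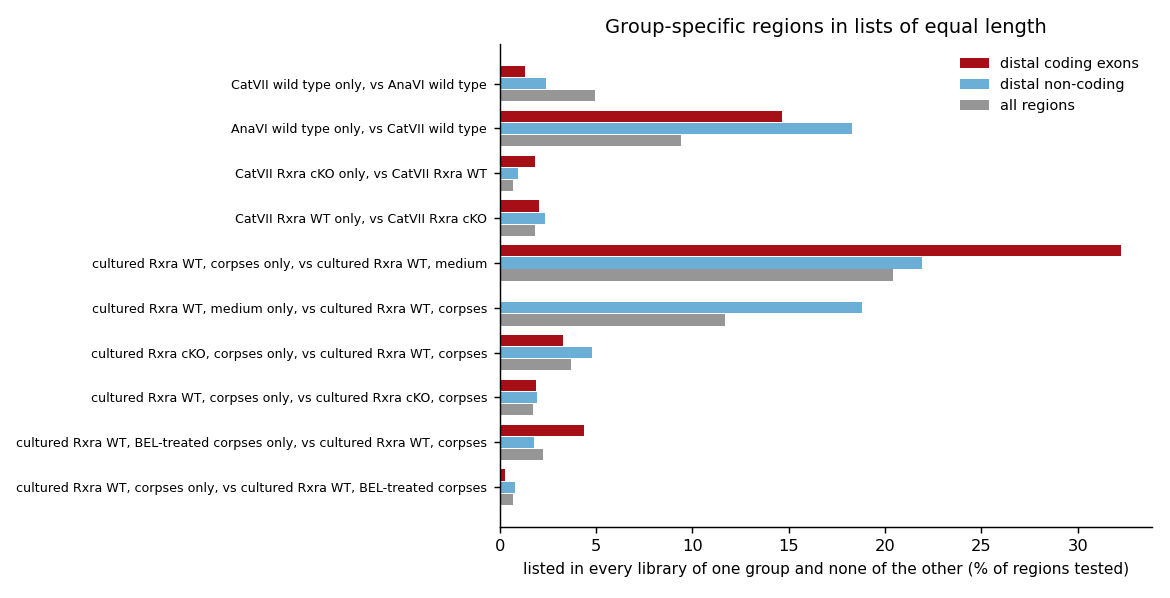
Percentage of tested regions with a listed peak in every library of one group and none of the other (horizontal axis) in lists of equal length, for each direction of the 5 comparisons (vertical axis), with distal coding exons, distal non-coding regions and all regions as separate bars. Distal coding exons stand at 4.39% for BEL-specific regions against 2.23% of all regions, and at 0 for regions specific to medium, where at most 2 regions of the set could be called.

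The same counts were made for 3 more pairs, as a description. Rxra cKO cultures had 8 corpse-specific exons of 23 tested (34.8%) and 0 medium-specific ones. The shares were 23.6% and 12.3% of all regions and 32.5% and 11.1% of distal non-coding regions. Muc16 and Jak2 were among the 8. Rxra WT cultures with the AA, LPC and RA mix had 7 of 11 (63.6%) and 0 for medium, against 31.6% and 13.3%, and these included Prdm2, Col15a1 and Def6. The counts of 0 were limited by the set, since 1 region had a peak in both Rxra cKO medium libraries and 2 in both Rxra WT ones. With so few medium regions to test, the shares specific to corpses or to the mix are not like for like with the other regions either. With the mix, Rxra cKO cultures had 13 specific exons of 91 (14.3%) and Rxra WT cultures 3 (3.30%), against 7.83% and 3.69% of all regions. Of the 13, 12 had a peak in 1 Rxra WT culture outside the equal-length lists, and in 10 of these it was above the lower cKO value. The 3 WT-specific exons had such peaks in both cKO cultures. The Rxra WT cultures with the mix are stored as Phago, and the Rxra cKO cultures with the mix and the medium cultures as NonPhago. In both pairs with the mix, tag and group can therefore not be told apart. The comparisons with medium and those with corpses share libraries, so they are not independent of each other.

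Many regions were open either in skin or in culture but not in both, in this set as among all regions. Of the 2459 regions, 861 (35%) were open in cultured libraries alone, 691 (28.1%) in in vivo libraries alone and 907 (36.9%) in both. The shares were 38.2%, 34% and 27.8% of distal non-coding regions and 36.2%, 31.7% and 32.2% of all regions. The 538 regions open in 1 library could be in 1 setting alone. Here too, sites open in more libraries had more chances to enter the set, and the part of this in the shares was not tested. In all, 177 regions (7.20%) were open in at least 10 of 19 cultures and no in vivo library, against 6.31% of distal non-coding and 5.94% of all regions. A further 57 (2.32%) were open in at least 8 of 15 in vivo libraries and no culture, against 1.49% and 1.38%. The genes named for this contrast were picked after their values were seen. Mertk exon 7 (chr2:128600722-128601260), of a receptor by which phagocytes recognise apoptotic cells, was open in all 15 fed cultures and in no in vivo or medium library. Its fold enrichment was 15.3, 14.1, 17 and 16.4 with BEL-treated corpses, 15.8, 12.9 and 18.5 in Rxra cKO and 9.49, 12.8, 18.5 and 18.5 in Rxra WT cultures with untreated corpses, and 12.1 and 14.6 in Rxra cKO and 18.4 and 5.97 in Rxra WT cultures with the mix. These groups overlapped, apart from the lower of the Rxra WT libraries with the mix, and the summit was in the exon in 5 of the 15. Vcl exon 5 (vinculin, chr14:21035409-21035916), Shroom3 exon 9 (an actin regulator, chr5:93102930-93103566) and Tie1 exon 21 (an endothelial receptor kinase, chr4:118329561-118330307) were likewise open in 14 or 15 fed cultures alone. The medium lists held 3976 to 5542 peaks, so the lack of a medium peak at these exons and at Mertk cannot be read as opening on feeding.

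In the other direction, Aldh1a1 exon 10 (chr19:20611583-20612433), of a retinaldehyde dehydrogenase that makes retinoic acid, was open in 11 in vivo libraries and in no culture. Its fold enrichment was 10.4, 9.44 and 22.8 in CatVII Rxra cKO and 8.65, 15.7, 11.4 and 11 in CatVII Rxra WT HFSCs, and 10.5, 4.67 and 4.68 in 3 of 6 CatVII wild-type and 10.9 in 1 of 2 AnaVI libraries. The cKO and WT values overlapped. Lhx2 exon 4 (chr2:38249718-38250239), of a LIM homeodomain factor of HFSCs, was open in 9 in vivo libraries and no culture, with 3.71, 5.19 and 12.2 in CatVII Rxra cKO and 8.19, 5.97 and 4.76 in 3 of 4 CatVII Rxra WT libraries. Lpar5 exon 2 (a lysophosphatidic acid receptor, chr6:125058638-125059197) had 5.01, 11.9 and 18.1 in CatVII Rxra cKO and 6.85, 21.3, 11.2 and 14 in CatVII Rxra WT HFSCs, and Slc16a14 exon 3 (a monocarboxylate transporter family member, chr1:84900567-84901737) 6.49, 7.86 and 9.54 and 3.89, 7.58, 7.07 and 7.97. Both were open in 12 or 13 in vivo libraries and in no culture.

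Some pathways held more of these exons than others for the coding sequence they offer. Over all genes there were 156 distal coding exon regions per Mb of coding bases over 5 kb from a start. The retinoid list had 408 per Mb, with 7 regions in 7 genes: Dhrs9, a retinol dehydrogenase (exon 5, 26 libraries), Stra6, the retinol transporter (exon 9, 23), Rara and Aldh1a1 (11 each), Rarb (4), Cyp26b1, which degrades retinoic acid (2), and Rxra itself (exon 7, 1 CatVII Rxra WT library). At 4 of these genes, Stra6, Rarb, Cyp26b1 and Rxra, the summit was in the exon in 1 or 2 libraries. The phagosome and lysosome list had 357 per Mb (8 regions, led by Atp6v1a in 29 libraries, the late endosomal GTPase Rab7 in 18 and Vps41 in 10), and the HFSC identity list 342 (9 regions, led by Lhx2 exon 5 in 13 libraries). Adhesion and basement membrane genes had 279 per Mb, with 48 regions in 21 genes. These include Hspg2 (perlecan) exon 2 in 25 libraries, Lama3 exon 36 in 23, Lama5 exon 10 and Lamb1 exon 19 in 20 each and Dst (dystonin) exon 56 in 19. The summit was in the exon in 5 libraries for Lama3 and 3 for Lamb1, but in 21 for Hspg2 and 19 each for Lama5 and Dst. The list of WNT, BMP, TGF-β, Notch and Hedgehog signalling had 209 (15 regions in 10 genes, led by Wnt10a exon 4 in 24 libraries), and that of LXR, PPAR and lipid handling 185. Lists near or below the average were apoptotic cell receptors and bridging proteins (127 per Mb, 5 regions, led by Mertk), engulfment and cytoskeleton (126, 6 regions), stress and inflammation (107) and keratinocyte differentiation (102, 5 regions, led by Tchh). Markers of other cell types had 167 per Mb, with 6 regions. Most of these lists rest on fewer than 10 regions.

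Genes with several such exons were mostly long. There was 1 region in 1627 genes, 2 in 293, 3 in 49, 4 in 10 and 5 to 8 in the other 10. Ahnak, of a giant scaffold protein, had 8 regions in 1 exon, of which 4 were repeated sequence and none was open in more than 4 libraries. Muc17, a membrane mucin, was alike, with 6 regions in 1 exon, 4 of them repeated and none open in more than 2 libraries. Syne1, of a nuclear envelope spectrin-repeat protein, had 7 regions in 7 exons, open in up to 24 libraries, and Sptbn5, a β-spectrin, 6 regions in 6 exons with a median of 16.5 libraries. Muc16 had 7 regions in 3 exons, and a further one of them (exon 4, chr9:18547988-18548712) was open in the same 14 fed cultures as exon 2, with 16.8, 16 and 16.3 in Rxra cKO and 11.1, 12.6, 21.2 and 23 in Rxra WT cultures with corpses. Dock8, Lama3, Sptbn4, Dst and Pkhd1 had 5 each, and for its distal coding length Dock8 had the most of these 10 genes, at 9.85 per 10 kb against 2.79 for Muc16.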

How the data were processed

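The members and the gene lists were chosen with earlier results of these data known. Per the labels and the study's methods, the authors aligned paired-end ATAC-seq reads to mm39 (GRCm39) with BWA-MEM 0.7.18, discarded duplicate reads (SAMtools 1.17) and ran the MACS3 3.0.0 peak caller on single libraries, without a control and at a q-value of 0.05. SAMtools 1.9 and deepTools 2.0.0 are also named in the submitters' processing notes. The sources name NovaSeq and NextSeq sequencers, and state that the in vivo libraries were barcoded in batches and the cultured ones in 1 batch. The deposited lists give for each peak the fold enrichment over local background (a ratio, used here as the peak's height) and the −log10 p (used to rank peaks), as the authors' peak caller wrote them, together with −log10 q (not used). They hold no read counts, so a count model was not fitted and reads behind a value are unknown.

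Coding sequence and starts came from GENCODE vM39, with starts of all transcripts of protein-coding genes. Peaks overlapping by 1 bp were merged. A library was open at a region when any of its peaks overlapped it by 1 bp. Equal-length lists kept each library's peaks with the highest −log10 p. A region was tested in a comparison when it had a listed peak in at least as many libraries as the smaller group. Shares were compared by exact permutation over libraries (Python 3.11.15, NumPy 2.4.6, pandas 2.3.3). The scripts were tested on simulated lists. Motifs were searched in 201-bp windows on both strands. Promoter peaks lay within 1 kb of a start.

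Named regions were the 20 open in the most libraries, up to 6 group-specific ones per direction of a comparison with the highest mean rank, every group-specific one in 1 of the 11 gene lists, and the 10 genes with the most regions. Others are said to have been picked after their values were seen. Alternatives were all called peaks, lists cut to 50%, a summit within the region, other sets of starts, no repeated sequence, leaving out each library, a replicate block, and the libraries of 1 stored tag. An exon that the rule for the text's genes selected is not reported here.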

Additional observations from a re-analysis of the deposited data

How the results depend on the processing

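No p-value of the share of peaks in distal coding exons survived adjustment, so the alternatives bear on direction and on unadjusted p-values. The direction held in every alternative run for 4 of the 5 comparisons, the exception being Rxra cKO against Rxra WT in CatVII. For CatVII against AnaVI the difference was −0.182 with all called peaks (exact permutation p = 0.143) and −0.155 with starts of any gene (p = 0.0714), and −0.232 to −0.133 when single libraries were left out. For CatVII Rxra cKO against Rxra WT it turned to −0.0225 with all called peaks and −0.0229 with starts of protein-coding transcripts alone, and was −0.0482 to 0.0494 when single libraries were left out. For corpses against medium and for corpse-fed Rxra cKO against Rxra WT it was 0.149 to 0.235 and 0.0157 to 0.0508 when single libraries were left out. For BEL-treated against untreated corpses it was 0.0952 with all called peaks (exact permutation p = 0.0857), 0.0297 with lists cut to 50% (p = 0.4) and 0.103 in the NonPhago-tagged libraries (p = 0.333, the smallest possible), and 0.0648 to 0.0947 when single libraries were left out. The cause of these shifts was not tested.

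With the replicate block the difference was −0.230 for CatVII against AnaVI (exact permutation p = 0.5), −0.0033 for CatVII Rxra cKO against Rxra WT, 0.171 for corpses against medium (p = 0.5), 0.0328 for corpse-fed Rxra cKO against Rxra WT (p = 0.5) and 0.0799 for BEL-treated against untreated corpses (p = 0.125). The smallest p that the block allows is 0.5, 0.25, 0.5, 0.25 and 0.125 in these 5 comparisons, so none could reach 0.05. Same-numbered libraries correlated at −0.0339 to 0.123 in their deviations from the group means, with 1 pair over 0.1. Corpse-fed cultures (Rxra cKO against Rxra WT, and BEL-treated against untreated) correlated positively where the stored Phago or NonPhago tag was the same (0.0183 to 0.123). Where the tags differed, they correlated negatively (−0.027 to −0.105). The main tests took no account of this, and whether number or tag pairs the libraries was not tested.

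The counts of group-specific regions depended on the settings. With all called peaks they were 0 for CatVII against 19 for AnaVI, 3 for CatVII Rxra cKO against 5 for Rxra WT, 480 for corpse-fed Rxra WT cultures against medium, 2 for corpse-fed Rxra WT against cKO, and 10 for BEL-treated against 6 for untreated corpses. With lists cut to 50% they were 0 against 6, 1 against 1, 2 against 1 and, for corpse-fed Rxra WT cultures against cKO, 9, and for BEL-treated against untreated corpses 19 against 4. With a summit required in the region they were 0 for CatVII and 19 for BEL-treated corpses. With starts of protein-coding transcripts alone, which gave 3721 regions, they were 3 for CatVII against AnaVI, 14 for CatVII Rxra WT, 1 for medium, 25 for corpse-fed Rxra WT against cKO, and 44 for BEL-treated against 4 for untreated corpses. Without repeated sequence the count for untreated against BEL-treated corpses was 1. In P42-tagged libraries, chosen after seeing the data, CatVII Rxra cKO had 28 against 50 for its 1 Rxra WT library. When single libraries were left out, the counts were 1 to 2 for CatVII and 11 to 41 for AnaVI, 8 to 52 for CatVII Rxra cKO and 10 to 29 for Rxra WT, 10 to 14 for corpses and 0 to 9 for medium, 25 to 41 for corpse-fed Rxra cKO and 16 to 29 for Rxra WT, and 32 to 51 for BEL-treated and 2 to 10 for untreated corpses.

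The number of peaks limits these values: medium libraries held 3 to 10 peaks in distal coding exons, so a difference of a few peaks moves their share.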

Other observations

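Gene families, chosen after their values were seen, differed in how often their distal coding exons were open, beside 156 regions per Mb of distal coding bases over all genes. Keratin genes had 568.5 per Mb (9 regions in 8 genes), spectrins 368 (14 in 5 genes), integrins 261 (13 in 8), mucins 229 (30 in 9, of which 10 were repeated sequence), solute carriers 183 (57 in 47) and collagens 131 (15 in 10). Zinc finger genes named Zfp had 76.2 per Mb (34 regions in 32 genes), vomeronasal receptors 29 (7 regions, 5 of them repeated) and odorant receptors none over 43 genes.

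A few regions lay in genes that mark other cell types. Pmel exon 6, of a melanosome protein, was open in 12 libraries with the summit in the exon in all 12, of which 11 were fed cultures. Csf1r exon 13 was open in 4 libraries, Pdgfra exon 14 in 3, and exons 10 and 11 of Cdh5 in 1 library each. All libraries were of sorted cells, in vivo after removal of cells with endothelial, immune and other lineage markers, and what part of these peaks comes from cells other than HFSCs was not tested.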
